A study of Mus musculus with 8 samples.

Results

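The calpain system and caspases of immobilized muscle were described with 7 genes, Capn1, Capn2, Capn3, Capns1, Cast, Casp9 and Casp12, which were chosen by name out of the 55487 gene identifiers in the deposited table. They were measured by RNA-seq in 8 male C57BL/6J mice aged 10 weeks, whose hindlimbs were both held in casts for 8 days. All 8 mice received K14Q MOTS-c at 15 mg/kg/day, divided over 2 intraperitoneal injections per day. MOTS-c is a small peptide encoded in the mitochondrial genome, and K14Q is a form with a glutamine in place of a lysine. The samples formed 1 group, so that immobilization and peptide treatment were shared by every mouse. No untreated, non-immobilized or wild-type peptide library was analysed here, and no value below is an effect of casting or of the peptide. The sample labels name the vastus lateralis as the tissue, whereas the study's methods name the gastrocnemius, and both are mixed muscles that the counts did not separate. Each mouse gave 1 library.

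Calpains are cytosolic cysteine proteases that are switched on by calcium and cut their targets at a limited number of places. The ubiquitous enzymes pair a catalytic subunit, calpain-1 or calpain-2, with a shared small regulatory subunit, and both are held in check by the inhibitor calpastatin. In skeletal muscle they are known for the release of myofilaments from the sarcomere and the cutting of cytoskeletal proteins during disuse, and calpain-3 is a muscle enzyme that binds titin and whose loss causes a limb-girdle muscular dystrophy. Caspases are a separate family of cysteine proteases that cut after aspartate. Caspase-9 starts the mitochondrial route of apoptosis on the apoptosome, and caspase-12 lies at the endoplasmic reticulum and is associated with the stress response there.

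Recovered library totals ran from 23985356 to 33012497 counts. A chi-square comparison of counts over genes gave at least 16.1 per degree of freedom in each of the 28 pairs of libraries, so no library was a copy of another. Muscle fibre genes were detected as the tissue label requires, with 6 of 6 markers at 10 or more counts in every library (Acta1, Ckm, Mb, Des, Ttn and Neb). The marker genes of fibroblasts, macrophages, endothelium, smooth muscle, erythroid and Schwann cells also all passed this minimum, so other cells contributed to each sample. Of the satellite cell and adipocyte markers, 2 of 4 and 4 of 5 passed. Libraries differed in makeup, since the 10 most abundant genes took 18.8% of the counts in mouse 3 and 26.2% in mouse 1. In bulk muscle, fewer cells of a type and less RNA per cell cannot be told apart.

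Stretches before a transcription start of the 3 catalytic calpain genes are shown. These enzymes form the core of the family and their genes lie on separate chromosomes. Each is 150 bases from 250 to 101 bases before a RefSeq transcription start on GRCm38.p6, 5′ to 3′ on the strand of the gene. The Capn1 and Capn3 stretches belong to 1 of their 2 listed starts, and Capn2 had 1 start. The Capn3 stretch lies inside the interval annotated for the gene, 120456019 to 120504913. Capitals mark an E-box, CANNTG, the motif of MyoD-type and many other factors, which reads the same on both strands.
Capn1, chr19:6015926-6016075, minus strand: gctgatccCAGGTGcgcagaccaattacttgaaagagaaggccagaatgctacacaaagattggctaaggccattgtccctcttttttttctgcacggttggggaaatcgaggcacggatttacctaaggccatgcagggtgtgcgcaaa
Capn2, chr1:182517711-182517860, minus strand: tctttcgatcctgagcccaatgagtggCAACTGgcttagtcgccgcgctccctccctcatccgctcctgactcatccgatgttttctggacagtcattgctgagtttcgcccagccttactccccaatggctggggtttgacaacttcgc
Capn3, chr2:120463343-120463492, plus strand: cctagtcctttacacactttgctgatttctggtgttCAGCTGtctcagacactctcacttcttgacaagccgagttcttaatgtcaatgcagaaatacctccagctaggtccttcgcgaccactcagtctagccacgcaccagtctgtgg

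Each of these windows held 1 E-box, and no 2 of them shared its central letters. The windows of the other listed starts of Capn1 and Capn3, not shown, held 0. A window of this kind with an E-box was not rare, as 49.3% of the 32851 RefSeq windows of the same length held one. Over all starts of the 7 genes, 6 of 12 windows held an E-box, and these covered 6 of the 7 genes, all but Casp12. A GC box, GGGCGG on either strand, was present in 2 of the 12 windows, those of Casp9 and of 1 start of Capn1, against 16.7% of all windows. The sequence CTANNNNTAG, a loose form of the MEF2 motif, was present in 1 of the 12 windows, that of Casp12, against 1.94% of all windows, and TATAAA in 0 of the 12, against 7.29%. These matches describe letters only.

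The minimum of 10 counts per library was reached by all 7 genes. Levels are given as normalized counts, which are read counts divided by the authors' size factor for the library. The error is the SD over the 8 mice, and the coefficient of variation (CV) is this SD as a percentage of the mean. Over the 15135 genes that reached it, the CV had a median of 15.6%.

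**Figure D1:**
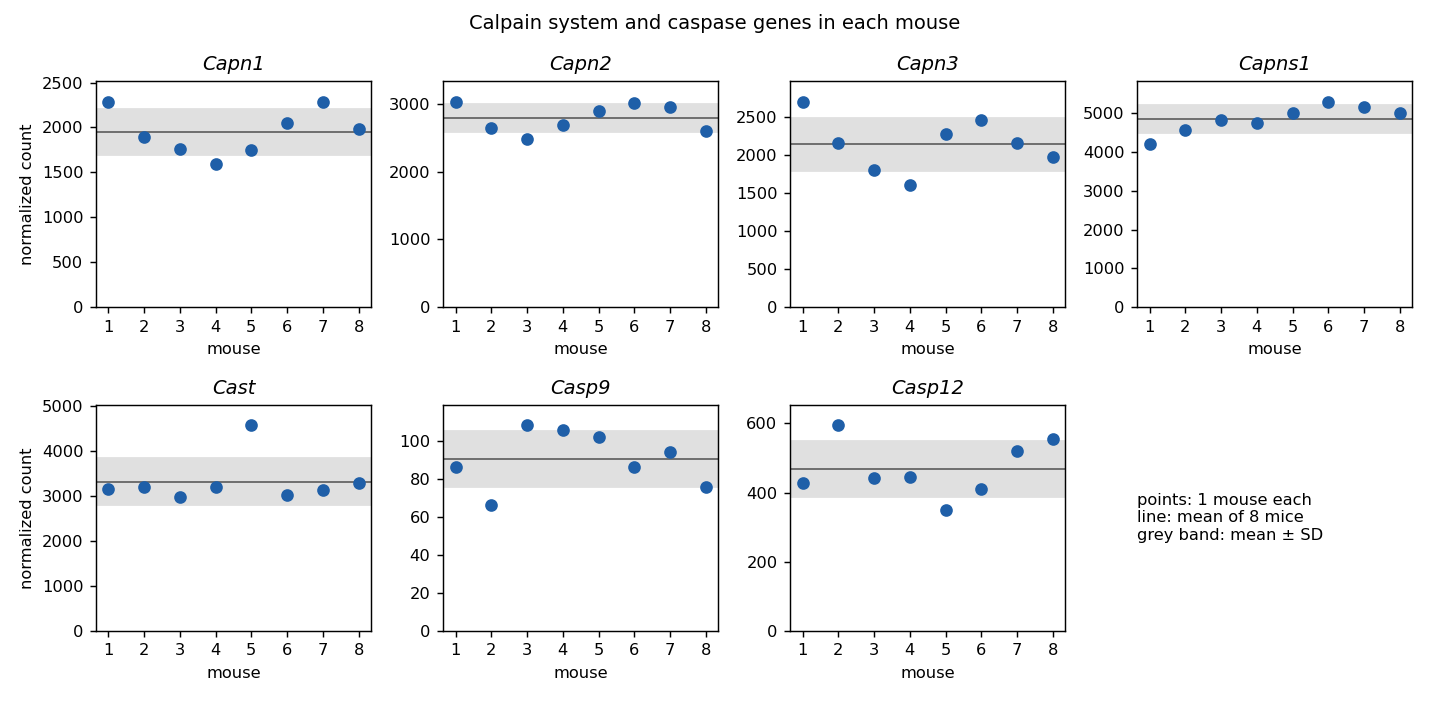
Normalized count of each of the 7 genes (y axis, starting at 0) in each of the 8 mice (x axis, mouse number), with 1 point per mouse, the mean as a line and the mean ± SD as a grey band. The point of mouse 5 in the Cast panel, at 4566, lies above the other 7, which sit between 2978 and 3284.

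Calpain-1 is active at lower calcium than calpain-2. Capn1 (ENSMUSG00000024942, chromosome 19, 5988545 to 6015897 on GRCm38, minus strand) had 1950 ± 252 normalized counts (SD, n = 8). The lowest mouse had 1589, the median was 1938 and the highest had 2288. Mouse 4 was lowest, and mice 1 and 7 were highest and nearly equal.

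Calpain-2 is the second of the ubiquitous catalytic subunits. Capn2 (ENSMUSG00000026509, chromosome 1, 182467260 to 182517608, minus strand) had 2789 ± 208 normalized counts (SD, n = 8), from 2484 in mouse 3 over a median of 2792 to 3035 in mouse 1. Its CV of 7.47% was small, since only 6.79% of the genes tested had a lower CV. Counting alone gave 1.91%.

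Capn3 (ENSMUSG00000079110, chromosome 2, 120456019 to 120504913, plus strand) had a larger CV than the ubiquitous calpains, 16.4% against 12.9% for Capn1 and 7.47% for Capn2. It had 2139 ± 351 normalized counts (SD, n = 8), from 1603 in mouse 4 over a median of 2159 to 2700 in mouse 1, a 1.68-fold range. Its CV was near the middle of all genes. Capn3 shares 386 exon bases, 7.68% of its merged exons, with Ganc, a glucosidase gene on the same strand. Ganc ran from 641 to 1109 normalized counts and went with Capn3 over the mice (r = 0.86, rho = 0.71; exact permutation p = 0.0051 for r and 0.058 for rho, adjusted p over all genes 0.49; r = 0.67 without the 2 mice farthest from the Capn3 median). How reads in the shared bases were assigned is not given in the sources used here, and the part of Ganc reads in the Capn3 value was not tested.

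The small subunit stabilizes both ubiquitous enzymes. Capns1 (ENSMUSG00000001794, chromosome 7, 30186936 to 30198811, minus strand) had the smallest CV of the 7 genes under the authors' size factors, at 4853 ± 350 normalized counts (SD, n = 8) and a CV of 7.20%, with 5.81% of all tested genes lower. It ran from 4199 in mouse 1 over a median of 4916 to 5301 in mouse 6. Mouse 1 was lowest for the small subunit while it was highest for Capn2 and Capn3. When the counts were scaled by library totals, mouse 1 was still lowest for Capns1, but its CV was 12.2%, above the 7.38% of Capn2, 8.29% of Capn1 and 11.9% of Capn3, whereas mouse 6 was highest for Capn2 and Capn3.

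Calpastatin is the specific protein inhibitor of both ubiquitous calpains. Cast (ENSMUSG00000021585, chromosome 13, 74692368 to 74808810, minus strand) had 3313 ± 516 normalized counts (SD, n = 8), and mouse 5 stood apart. The lowest mouse had 2978, the median was 3169 and mouse 5 had 4566, whereas the next highest had 3284. The gap of mouse 5 to the next mouse was 0.81 of the whole range, past Dixon's 95% critical value for 8 values. Cast was the 1 gene of the 7 with such a mouse, and 6.0% of all genes tested had one in either direction, among them 230 genes with mouse 5 on top and 206 with mouse 8 on top. A highest mouse with a gap at least as wide was mouse 5 in 0.033% of the genes, mouse 7 in 0.026% and mouse 8 in 0.013%. Without mouse 5 the mean of Cast was 3134 normalized counts. Mouse 5 also had the deepest library, with 33012497 counts, and the highest erythroid marker sum, 28320 normalized counts against 7060 to 24713 in the other mice; the part of either in its Cast value was not tested. Erap1, an aminopeptidase gene on the opposite strand that shares 834 exon bases with Cast, had 649 normalized counts in mouse 5, inside its range of 514 to 726 over the mice.

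Casp12 (ENSMUSG00000025887, chromosome 9, 5345430 to 5373032, plus strand) had 468 ± 81.4 normalized counts (SD, n = 8), from 349 in mouse 5 over a median of 443 to 594 in mouse 2. Its CV of 17.4% was the largest of the 7 genes under the authors' size factors and exceeded the 4.69% that counting alone gave. Casp9 (ENSMUSG00000028914, chromosome 4, 141793612 to 141815976, plus strand) had 90.3 ± 14.8 normalized counts (SD, n = 8), from 65.9 in mouse 2 over a median of 90.0 to 108 in mouse 3. With 61 to 130 reads per library, counting error alone gave a CV of 10.6% out of the 16.4% observed. Under library totals the CV of Casp9 was the larger, 23.7% against 16.5% for Casp12. Mouse 2 had the highest Casp12 and the lowest Casp9.

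To compare genes with each other, normalized counts were divided by the length of each gene's merged exons in kilobases. On this scale the small subunit led, with 1959 ± 141 normalized counts per kilobase for Capns1 (SD, n = 8), a level above that of 95.8% of the genes tested. Capn1 had 583 ± 75.4 per kilobase, Capn2 had 440 ± 32.8 and Capn3 had 426 ± 69.9. Calpastatin followed with 289 ± 45.0 per kilobase. Casp12 had 122 ± 21.2 per kilobase, near the middle of all genes, for which the median was 88.0. Casp9 came last with 17.4 ± 2.85 per kilobase, and 15.4% of the genes tested were lower.

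Neighbours in this order were tested within each mouse by an exact sign-flip permutation test of the log2 ratio, two-sided. In 5 of the 6 neighbouring pairs the upper gene was higher in 8 of 8 mice, each with an exact p of 0.0078, which is the smallest that 8 mice allow. Ratios of levels per kilobase were averaged on the log2 scale. The mean was 3.38-fold for Capns1 over Capn1, 1.32-fold for Capn1 over Capn2 and 1.47-fold for Capn3 over Cast. It was 2.38-fold for Cast over Casp12 and 7.01-fold for Casp12 over Casp9. Capn2 and Capn3 were not separated, with Capn2 higher in 5 of 8 mice (1.04-fold, exact permutation p = 0.42). The order among the calpains depended on the length used. When the longest annotated transcript was taken, Capn2 at 865 per kilobase stood above Capn1 at 637 in 8 of 8 mice, a log2 ratio of Capn1 to Capn2 of -0.45, and Capn2 stood above Capn3 at 674 in 8 of 8 mice (1.30-fold, exact permutation p = 0.0078). Capn3 and Cast were then not separated (4 of 8 mice, exact permutation p = 0.59), nor were Cast and Capn1 (4 of 8 mice, exact permutation p = 0.91). Capns1 at the top and Casp12 over Casp9 at the bottom were found with both lengths.

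**Figure D2:**
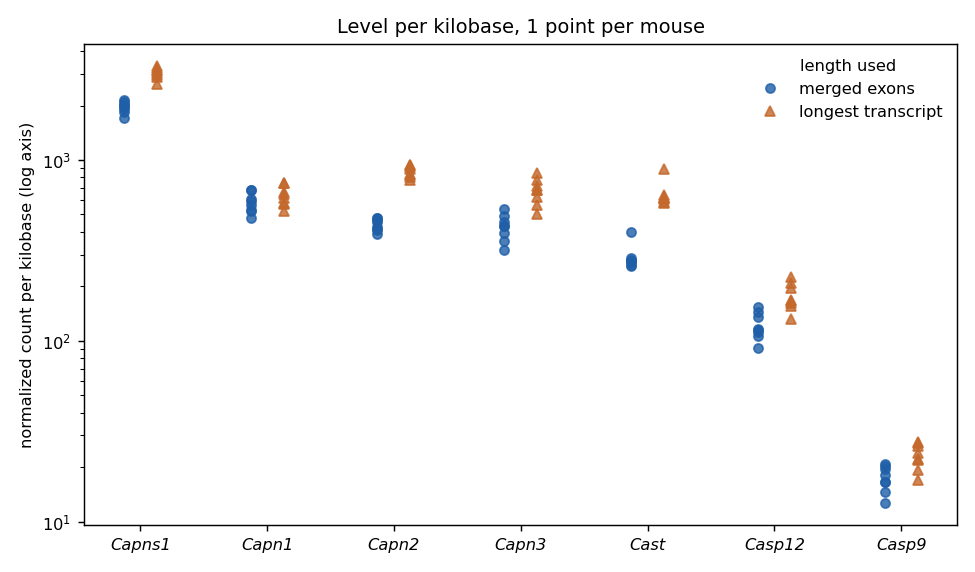
Normalized count per kilobase (y axis, log scale) of the 7 genes in the order of their mean over merged exons, with 1 point per mouse, circles for merged exon length and triangles for the longest transcript. Capns1 is highest and Casp9 lowest with both lengths, whereas Capn1 lies above Capn2 with merged exons and below it with the longest transcript.

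Ratios within a library do not depend on the size factor and are given here as arithmetic means. They are ratios of RNA levels, and protein was not measured. The level per kilobase of Capn1 was 1.33 ± 0.132 times that of Capn2 (SD, n = 8), from 1.12 in mouse 4 to 1.47 in mouse 7, and with the longest transcript as length it was 0.736 ± 0.073. The small subunit stood at 1.93 ± 0.221 times the summed catalytic subunits Capn1 and Capn2. Mouse 1 had a ratio of 1.46 and the other mice 1.81 to 2.13, so mouse 1 had the least Capns1 RNA relative to Capn1 plus Capn2.

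The ratio of the inhibitor gene Cast to the summed genes of the ubiquitous enzymes was 0.285 ± 0.056 (SD, n = 8). It was 0.432 ± 0.079 with the longest transcript as length. Mouse 5 had the highest value, 0.406, against 0.237 to 0.309 in the others, and this gap was also past Dixon's critical value. For the muscle enzyme, Capn3 stood at 0.415 ± 0.042 of the sum of the ubiquitous ones, with a range of 0.355 to 0.463. The ratio of Casp12 to Casp9 was the most variable, at 7.34 ± 2.53, from 4.65 in mouse 5 to 12.2 in mouse 2, a 2.63-fold range to which the counting error of Casp9 contributed.

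**Figure D3:**
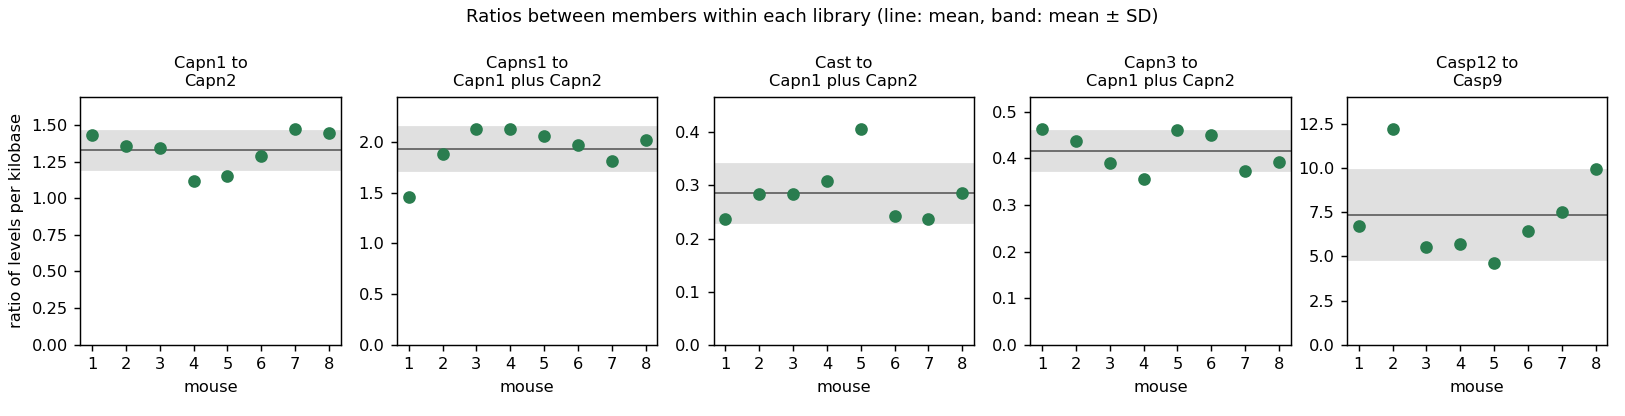
Ratios of levels per kilobase within each library (y axis, starting at 0) for 5 pairings of the genes, with 1 point per mouse (x axis, mouse number), the mean as a line and the mean ± SD as a band. Mouse 1 is lowest for Capns1 over the catalytic subunits (1.46), mouse 5 is highest for Cast over them (0.406) and mouse 2 is highest for Casp12 over Casp9 (12.2).

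Whether the 7 genes varied together between mice was asked with Pearson's r of log2(normalized count + 1) over the 8 mice. In 2 of the 21 pairs r was at least 0.7 in either direction, both positive. Among all pairs of the 15135 genes 9.62% passed the same limit and 4.98% did so with a positive r, so the count among these genes was about that of any genes. Capn2 and Capn3 had r = 0.77 (rho = 0.76; exact permutation p = 0.025 for r and 0.037 for rho, adjusted p over all genes 0.998). Without mice 1 and 3, the farthest from the Capn2 median, r was 0.63, and without mouse 1 alone it was 0.69. Capn1 and Capn3 had r = 0.75 (rho = 0.52; exact permutation p = 0.034 for r and 0.20 for rho, adjusted p over all genes 0.40), with 0.73 without mice 4 and 7, 0.57 without mouse 4 and 0.64 without mouse 1. Scaled by library totals, these values were 0.29 and 0.43, so both relations were weaker under that scaling, which shifted all values of a library by between -0.13 and 0.21 on the log2 scale.

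Capn1 and Capn2, the ubiquitous catalytic subunits, had r = 0.61 (rho = 0.55; exact permutation p = 0.11 for r and 0.17 for rho; r = 0.61 without mice 4 and 7). Under library totals the r of Capn1 with Capn2 was 0.16, and with trends on GC content and length taken out it was 0.75 (exact permutation p = 0.036). For the small subunit the values under the authors' size factors were near 0. Capns1 had r = -0.07 with Capn1 (rho = 0.29; exact permutation p = 0.87 for r and 0.50 for rho) and 0.02 with Capn2 (rho = 0.07; exact permutation p = 0.97 for r and 0.88 for rho). Without the 2 mice farthest from the median of the catalytic gene, the values of Capns1 became -0.47 and 0.75. Without mouse 1, r was 0.61 with Capn1 and 0.69 with Capn2. Under library totals, r was -0.03 with Capn1 and 0.57 with Capn2, so the value with Capn2 depended on the scaling as well as on mouse 1.

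Casp9 and Casp12 had a negative relation, r = -0.69 (rho = -0.48; exact permutation p = 0.057 for r and 0.24 for rho, adjusted p over all genes 0.65). Without mouse 2, r was -0.49. It was -0.55 without mice 2 and 3, and -0.19 under library totals. Cast and Casp12 had r = -0.52 (rho = 0.14; exact permutation p = 0.22 for r and 0.75 for rho), which rested on mouse 5, since it was 0.64 without that mouse and 0.65 without mice 3 and 5.

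Each gene was then set beside 6 marker scores, the mean z-score of a marker list in each mouse, and beside library depth and the share of counts in the 10 most abundant genes. Of the 56 relations, 7 had an unadjusted exact permutation p under 0.05, and none had an adjusted p over all genes under 0.05, the smallest being 0.22.

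**Figure D4:**
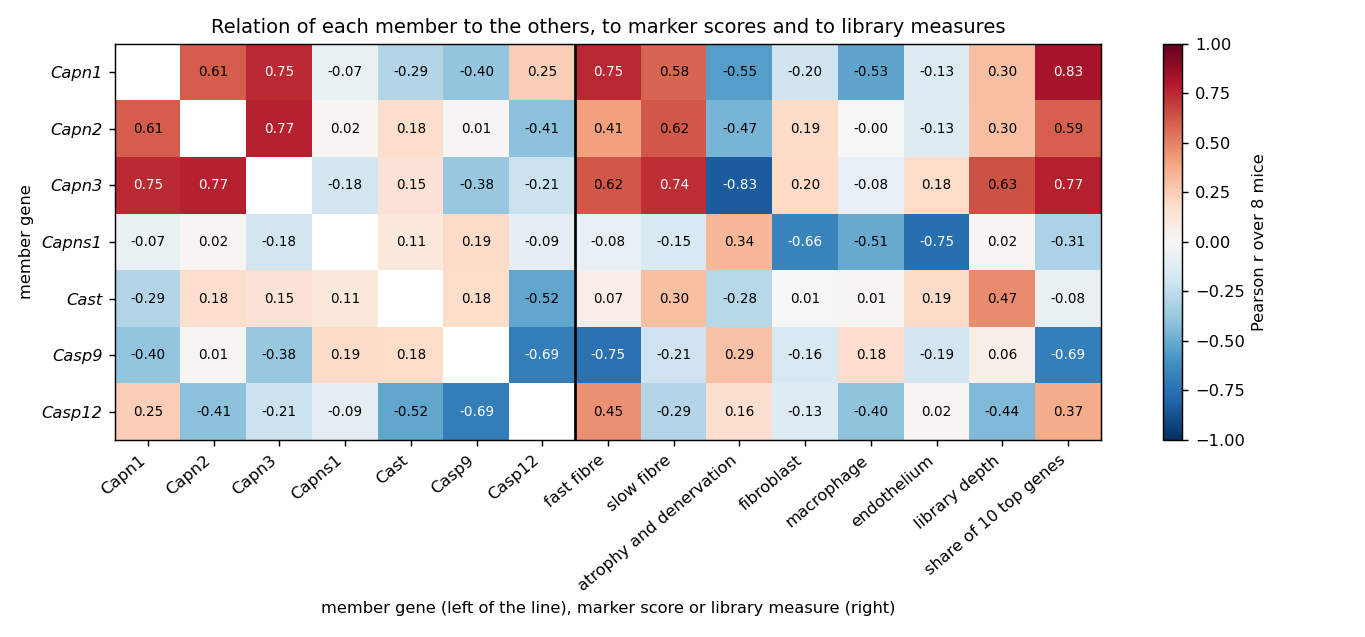
Pearson r over the 8 mice (color scale from -1 to 1, value printed in each cell) of each of the 7 genes (rows) with the other genes (left of the line) and with 6 marker scores and 2 library measures (right). The top 3 rows, the catalytic calpains, have positive values with one another and with the share of the 10 most abundant genes, from 0.59 to 0.83 for the latter.

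The share of the 10 most abundant genes, had a relation at this limit with 2 of the 7 genes, against 15.2% of all genes. Capn1 had r = 0.83 (rho = 0.74; exact permutation p = 0.013 for r and 0.046 for rho, adjusted p 0.22) and r = 0.80 without mice 1 and 3. Capn3 had r = 0.77 (rho = 0.71; exact permutation p = 0.025 for r and 0.058 for rho, adjusted p 0.27) and r = 0.61 without mice 1 and 3. Capn2 had r = 0.59 (rho = 0.62; exact permutation p = 0.13 for r and 0.11 for rho), which rested on those mice, as it was 0.13 without them. Under library totals the r of Capn1 was 0.27 and that of Capn3 was 0.38, so both were smaller under that scaling. It shifted mouse 3, with the smallest share, by 0.21 on the log2 scale and mouse 1, with the largest, by -0.13. The scaling was thus not independent of the share.

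**Figure D5:**
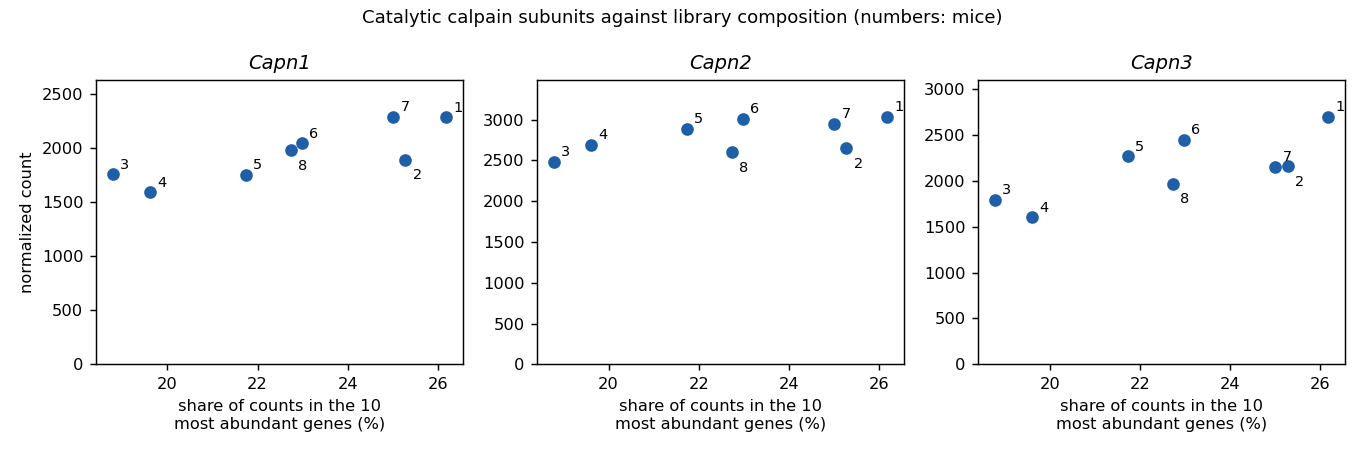
Normalized count of Capn1, Capn2 and Capn3 (y axis, starting at 0) against the share of counts in the 10 most abundant genes (x axis, percent), with 1 point per mouse and its number beside it. Mice 3 and 4, with the smallest shares, have the lowest Capn3, and mouse 1, with 26.2%, has the highest.

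The fast fibre score (Myh4, Myh1, Tnni2 and other genes of fast contraction, whose summed level ran from 1868268 normalized counts in mouse 3 to 3721369 in mouse 1) also had a relation with 2 of the 7 genes, against 13.6% of all genes. Capn1 went with it (r = 0.75, rho = 0.71; exact permutation p = 0.033 for r and 0.058 for rho, adjusted p 0.32), and r was 0.49 without mice 3 and 4. Casp9 went against it (r = -0.75, rho = -0.81; exact permutation p = 0.036 for r and 0.022 for rho, adjusted p 0.33), and r was -0.49 without mice 3 and 4. Both relations rested in part on these mice. Under library totals the r of Capn1 with this score was 0.22 (exact permutation p = 0.59), so its relation was lost, and that of Casp9 was -0.85.

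The slow fibre score, whose genes summed to between 12015 and 23839 normalized counts, had a relation with 1 of the 7 genes, against 3.67% of all genes. This was Capn3, with r = 0.74 (rho = 0.69; exact permutation p = 0.038 for r and 0.069 for rho, adjusted p 0.999), and 0.48 without mice 1 and 3. Under library totals it was 0.59 (exact permutation p = 0.13). The atrophy and denervation score, in which the ubiquitin ligases Fbxo32 and Trim63 and the acetylcholine receptor gene Chrna1 are counted, had a relation with 1 of the 7 genes, against 8.67% of all genes. It was again Capn3, which was lower where the score was higher (r = -0.83, rho = -0.83; exact permutation p = 0.010 for r and 0.015 for rho, adjusted p 0.55). Mouse 1 had the highest Capn3 and mouse 4 the lowest Capn3 with the highest summed level of atrophy genes, 161431 normalized counts, and r was -0.46 without these 2 mice. Under library totals it was -0.62 (exact permutation p = 0.10), so both relations of Capn3 then missed the limit.

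Among the scores of other cells, endothelium had a relation with 1 of the 7 genes, against 12.9% of all genes, and this was Capns1 (r = -0.75, rho = -0.81; exact permutation p = 0.028 for r and 0.022 for rho, adjusted p 0.32; r = -0.79 without mice 2 and 8). All 7 endothelial markers passed the count minimum, and their sum ran from 3882 to 5957 normalized counts. Under library totals this r was -0.06. The fibroblast score had a relation with 0 of the 7 genes, against 16.3% of all genes, the macrophage score with 0 of the 7, against 13.6%, and library depth with 0 of the 7, against 2.75%. When each mouse in turn was left out, the exact permutation p of Capn1 with the share of the 10 most abundant genes was under 0.05 every time (r from 0.76 to 0.92), and each of the other 6 relations passed 0.05 at least once. Capn3 with the atrophy score did so without mouse 4 (r = -0.69), Capns1 with endothelium without mouse 6 (r = -0.67) or 7 (r = -0.72), and Capn1 with the fast fibre score without mouse 1, 4 or 7 (r = 0.64 without mouse 4). Capn3 with the share of the 10 most abundant genes did so without mouse 1, 3 or 4 (r = 0.68 without mouse 1). Casp9 with the fast fibre score did so without any 1 mouse but 2 or 7 (r = -0.66 without mouse 3), and Capn3 with the slow fibre score without any 1 mouse but 2 or 8 (r = 0.59 without mouse 1). The part of fibre type, other cells and library makeup in the levels of the 7 genes was not tested.

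The rest of both protease families was described from fixed lists. Of 11 other calpain genes, 5 reached the minimum of 10 counts per library. Capn7 was the highest per kilobase, with 329 ± 24.3 normalized counts per kilobase (SD, n = 8), between Capn3 and Cast on this scale. Capn15 followed with 33.3 ± 7.37 per kilobase. With the longest transcript as length, Capn7 had 345 per kilobase, below Cast at 644. Capn8 and Capn13 had 0 counts in all 8 libraries, and Capn9, Capn12 and Capns2, a second small subunit gene, had at most 3, 6 and 1 counts in any library. Capn11 was uneven, with 69 counts in mouse 1, 52 in mouse 4, 11 in mouse 6 and 2 in each of the other mice.

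Of 8 other caspases, 7 passed the count minimum, with mean levels of 7.92 to 41.0 normalized counts per kilobase. Casp4, an inflammatory caspase, led with 41.0 ± 16.4 per kilobase, and Casp8, which acts below death receptors, followed with 24.9 ± 4.43. Casp14 had 0 counts in all libraries. On the scale per kilobase, Casp12 at 122 stood above each of the other caspases in the list, and Casp9 at 17.4 lay within their range.

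The partners of caspase-9 were all detected, with 9 of 9 apoptosome and inhibitor genes past the minimum. Cycs, which encodes cytochrome c, had 1862 ± 294 normalized counts per kilobase and Birc3, an inhibitor of apoptosis, 172 ± 72.9. Of the BCL2 family 9 of 10 passed, led by the anti-apoptotic Mcl1 at 1711 ± 164 and Bak1, a pore-forming member, at 355 ± 47.2 per kilobase, and Pmaip1 had between 2 and 12 counts. All 9 genes of endoplasmic reticulum stress passed, led by the transcription factor Atf4 at 1219 ± 217 and the chaperone Hsp90b1 at 1116 ± 145 per kilobase. All 10 calpain substrates passed, led by Des, the gene of the intermediate filament protein desmin, at 30193 ± 1965 and Neb, the gene of the thin filament protein nebulin, at 15625 ± 3413 per kilobase. All 3 subunits of the kinase CK2 passed as well, with Csnk2b at 835 ± 62.6 and Csnk2a1 at 655 ± 48.2 per kilobase.

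The genes of these lists with the highest and the lowest r for each of the 7 genes are given as a description, since they were picked as extremes, and none had an adjusted p over all genes under 0.05. Capn2 was highest with Des (r = 0.85, rho = 0.93, and r = 0.88 without mice 1 and 3), and lowest with Birc2, an inhibitor of apoptosis (r = -0.64, rho = -0.76). The r with Des was 0.91 under library totals, whereas that with Birc2 became 0.36. Capn3 was lowest with Xbp1, a transcription factor of the unfolded protein response (r = -0.88, rho = -0.74, and r = -0.62 without mice 1 and 4). Xbp1 ran from 1539 normalized counts in mouse 1, the mouse with the most Capn3, to 2496 in mouse 4, the mouse with the least. Capn3 was highest with Capn6 (r = 0.67, rho = 0.57). Capn1 was lowest with Bbc3, the gene of the pro-apoptotic protein PUMA (r = -0.85, rho = -0.71), and highest with Csnk2b (r = 0.71, rho = 0.83). Under library totals the r of Capn3 with Xbp1 was -0.50 and that of Capn1 with Bbc3 was -0.33. The r of Capn1 with Csnk2b was then 0.38, and it was 0.35 without mice 4 and 7.

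Capns1 was highest with Diablo, which relieves inhibition of caspases (r = 0.76, rho = 0.52), and lowest with Casp8 (r = -0.67, rho = -0.64). Both values depended on mouse 1, as they were 0.46 and -0.27 without it. Casp9 was highest with Bcl2l1, the gene of the anti-apoptotic protein BCL-XL (r = 0.84, rho = 0.86, and r = 0.92 without mice 2 and 3), and lowest with Capn6 (r = -0.72, rho = -0.90). Its r with Bcl2l1 was between 0.81 and 0.91 when each mouse in turn was left out, and 0.92 under library totals. Casp12 was highest with Casp6 (r = 0.82, rho = 0.71) and lowest with Ahnak (r = -0.72, rho = -0.81). Under library totals these r values were 0.81 and -0.54. Cast was highest with Vcl, the vinculin gene (r = 0.83, rho = 0.24), and lowest with Casp6 (r = -0.78, rho = -0.12). Mouse 5 carried both values of Cast, as r was 0.07 with Vcl and 0.31 with Casp6 without it.

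The 3 protein-coding genes with the most similar pattern over the 8 mice were taken for each gene by r, again as a description. For Capn1 they were Fam189b, Bckdk and Vps9d1 (r from 0.96 to 0.97), and for Capn2 Plod2, Eloa and Mest (0.93 to 0.95). For Capn3 they were Lmbr1, Hrc and Slc8a3 (0.96 to 0.98), and for Capns1 Riok3, Cd28 and Plk3 (0.95 to 0.97). For Casp9 they were Llgl1, Axin2 and Slc25a5 (0.95 to 0.96), and for Casp12 Nek1, Fam192a and Htra4 (0.95 to 0.97). Hrc and Slc8a3 code for proteins of muscle calcium handling, a calcium-binding protein of the sarcoplasmic reticulum and a sodium-calcium exchanger. Hrc ran from 13113 normalized counts in mouse 4 to 19773 in mouse 1, the mice that were also lowest and highest for Capn3. For Cast the nearest genes were Socs6, Arih2 and Rdh10 (0.97 to 0.98), with rho between 0.67 and 0.86. The r with Rdh10 rested on mouse 5, as it was 0.39 without that mouse, whereas that with Socs6 and Arih2 fell to 0.72. The r with Plod2 and Mest fell to 0.51 and 0.50 for Capn2 under library totals.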

How the data were processed

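Poly-adenylated RNA from frozen muscle was sequenced on an Illumina NextSeq platform. The authors mapped reads to GRCm38 with STAR, counted them per gene with summarizeOverlaps and normalized with DESeq2. The submitters' processing notes also name fastp, FastQC and GRCm38.p6. Strand use and annotation release are not given in the sources used here. The deposited values are a signal: read counts that the authors had scaled by a single factor in each library. Whole reads were recovered for 100% of values, within 0.01 of a read; size factors were 0.906 to 1.20 and totals 23985356 to 33012497 counts. Counting error covers reads, which carry no molecular identifiers, and for Casp9 it gave a CV of 10.6%.

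With 1 condition, no difference between groups was tested. Replicates were 8 mice of 1 group. Of the identifiers, 55227 of 55487 were found in GENCODE M21, which gave symbols, positions and lengths. Relations were tested over 15135 genes, those with a minimum of 10 counts per library, by exact permutation of all orders of the mice, two-sided, on log2(value + 1), with Benjamini-Hochberg adjustment over all genes. Exact tests were tested on simulated data. Alternatives were edgeR TMM factors, library totals, a pseudocount of 5, all genes with a count, rank correlation, trends on GC content and length taken out, longest transcripts, and leaving out each mouse.

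The 7 genes and all lists were chosen with earlier results of these data known. The genes named were these 7, the 3 protein-coding genes nearest to each by r, and, from each pathway list, the 2 highest per kilobase, those under 10 counts in some library and the highest and lowest r with each of the 7. Ganc and Erap1 are outside this rule and were added after their values were seen, and the marker genes named come from the fixed marker lists. Protein sequences, and the wild-type peptide and control libraries, were not analysed here. R 4.3.3 with edgeR 4.0.16 and Python 3.11.15 with scipy 1.17.1, numpy 2.4.6 and pandas 2.3.3 were used.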

Additional observations from a re-analysis of the deposited data

Results flagged for a closer look

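Among 43 values checked (the levels of the 7 genes, the ratios between them, the marker scores and library measures, and the detected pathway genes named above by the fixed rule), 3 had 1 mouse that stood apart by Dixon's 95% criterion, where chance alone would give about 2.15. In each of them it was mouse 5 on the high side, but they are not 3 separate observations. The ratio reuses the Cast values, and Vcl was on the list for its r with Cast, which was 0.83 and fell to 0.07 without mouse 5. For Cast the gap from mouse 5 to the next mouse was 0.81 of the range, at 4566 against 3284 normalized counts. For the ratio of Cast to Capn1 plus Capn2 it was 0.57 of the range, at 0.406 against 0.309. For Vcl it was 0.54 of the range, at 2625 normalized counts against 2103 in the next mouse. Of the 15135 genes tested, 230 had mouse 5 on top with a gap past the criterion, 206 had mouse 8 on top and 103 had mouse 8 below the others in this way.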

How the results depend on the processing

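Levels were recomputed under other scalings and the median over mice, order and ratios with the longest transcript, relations under the other alternatives, and all of them without each mouse. Of these recomputed values, 151 for levels, ratios and counts and 650 for single comparisons or relations kept their direction and side of the limit, whereas 77 lost an unadjusted exact p under 0.05, 15 gained one, 12 turned direction and 8 values or counts moved by more than their spread or limit. Using all genes with a count cannot change an r or its unadjusted exact p, so values kept under that setting were fixed in advance. With the longest transcript as length, the ratio of Capn1 to Capn2 was 0.736, the log2 ratio was -0.45 and the ratio of Cast to Capn1 plus Capn2 was 0.432. Scaling by library totals gave 1 pair of the 7 genes at an r of 0.7 or more, which was neither of the 2 named above, and 4 relations to a score or library measure against 7, of which Casp9 with the fast fibre score alone was among the 7, and turned Capn2 with Birc2 to 0.36. With edgeR TMM factors, and with trends on GC content and length taken out, 3 pairs passed. Rank correlation gave 1 pair, Capn2 with Capn3, and turned Capn1 with Capns1 to 0.29 and Cast with Casp12 to 0.14. The cause was not tested. Leaving out each mouse gave 1 to 3 pairs, with the 1 without mouse 1, and 3 to 9 relations, with 3 without mouse 4 and 4 without mouse 1. Over the same mice, r ran from -0.32 to 0.61 for Capn1 with Capns1, -0.45 to 0.55 for Capn3 with Capns1, -0.24 to 0.69 for Capn2 with Capns1, -0.86 to 0.31 for Cast with Casp6 and -0.63 to 0.64 for Cast with Casp12. Among all gene pairs, 6.70% reached the limit when all genes with a count were used and 9.08% after removal of GC content and length trends. No paired analysis was possible because the samples form 1 group. Depth limits Casp9 most, with 61 reads in its lowest library.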
